A study of Mus musculus with 6 samples.

Results

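The matrix proteases and their inhibitors were followed across the cell types of the mouse lower abdominal muscle (LAM), the muscle that gives way in inguinal hernia. All genes of the deposited table whose symbol names an Mmp, a Timp, an Adam, an Adamts or an Adamtsl were taken, which gave 60 of 16494 genes (0.364%). These were 17 Mmp, 4 Timp, 16 Adam, 18 Adamts and 5 Adamtsl genes. The rule rested on the symbol alone and used no measured value, but it was set with earlier results of these data known.

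Single-cell RNA sequencing (10x Genomics 3′ chemistry) was performed on the dissociated LAM of 6 male FVB/N mice aged 9 to 10 weeks. Of these, 3 were wild-type (WT) mice, labelled as controls, and 3 were Aromhum mice, labelled as having scrotal hernia, so that genotype and hernia cannot be told apart. Aromhum mice carry the human aromatase gene CYP19A1, the enzyme that turns androgens into estrogens, under its own human promoters, and therefore make it in several tissues and not only in muscle. The tissue was digested with collagenase II and dispase II and filtered, which removes whole muscle fibres, and 1 WT mouse and 1 Aromhum littermate were processed on each of 3 dates. CYP19A1 was counted 0 times in every WT mouse and 770, 797 and 787 times in Aromhum mice 1, 2 and 3. Values per mouse are always given in the order of mouse 1, 2 and 3.

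Matrix metalloproteinases (MMPs) are zinc-dependent enzymes, secreted or bound to the cell surface, that cut collagens, proteoglycans and other matrix proteins. Tissue inhibitors of metalloproteinases (TIMPs) block the active site of MMPs and of some related enzymes. ADAMs are mostly membrane-anchored and release the outer parts of other membrane proteins. ADAMTS enzymes are secreted and either trim procollagens or cut proteoglycans such as versican and aggrecan, and ADAMTS-like (ADAMTSL) proteins share their ancillary domains but have no protease domain. In skeletal muscle, fibroblasts and the cells of vessels make much of the matrix that these enzymes remodel, and the balance of MMPs and TIMPs is commonly discussed in fibrosis.

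The table held 63647 barcodes and 517946965 unique molecular identifiers (UMIs, each counting 1 captured transcript). The total per mouse was 64958237 to 72876541 UMIs in WT mice and 92652109 to 111826460 in Aromhum mice, and the members made up 0.377% to 0.484% of it in WT and 0.530% to 0.691% in Aromhum mice. Barcodes were clustered without the members, and clusters were named from marker genes that are not members, which gave 11 cell types, with 7.38% of barcodes left unnamed. Fibroblast-like cells, named from collagens and other stromal markers such as Pdgfra and Dcn, numbered 3698, 2588 and 1702 in WT and 5052, 6991 and 3622 in Aromhum mice. Aromhum mouse 3 stood apart from the other Aromhum mice: it held 11 cells of the subgroup named Mmp3hi HAFs in the study, where Aromhum mice 1 and 2 held 665 and 1160. Only 18852 barcodes lay within the limits on genes, UMIs and mitochondrial share stated for the study, and 40.2%, 36.0% and 50.0% of Aromhum barcodes against 25.5%, 27.9% and 35.2% of WT barcodes exceeded the upper limit of 2500 genes. More WT than Aromhum barcodes had a mitochondrial share over 5%, at 38.0%, 68.2% and 40.1% against 30.4%, 30.9% and 27.6%. Since the limits removed cells unequally between genotypes, every deposited barcode was used and the limits were an alternative.

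Most abundant members fell into a few patterns of cell type. A level is given as CPM, the UMIs of a gene per 1000000 UMIs of that cell type in that mouse, as mean ± SD over the 6 mice of both genotypes. Since 1 UMI stands for 1 transcript whatever its length, levels of different genes were compared on this scale. The cell type with the highest mean level was the fibroblast-like cell for 16 of the 60 members, smooth muscle cells and pericytes for 9, macrophages for 9, glial cells for 7, endothelial cells for 5, T cells for 5, mesothelial cells for 4, muscle stem cells for 3 and lymphatic endothelial cells for 2. In most of these rankings the level overlapped between mice with that of the next type, and all T cell rankings did. Some rest on few UMIs, such as Adam3 in T cells at 0.79 ± 1.94 CPM (17 UMIs in the series) and Mmp8 in macrophages at 0.45 ± 1.10 CPM (29 UMIs). Within the limits stated for the study the number for fibroblast-like cells was 24, but mesothelial cells and T cells had under 10 cells in some mice and were not ranked there, and 6 of the 8 members gained had been highest in these. These levels describe cell types found by clustering the same cells, and no test was made of a cell type against the rest.

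**Figure D1:**
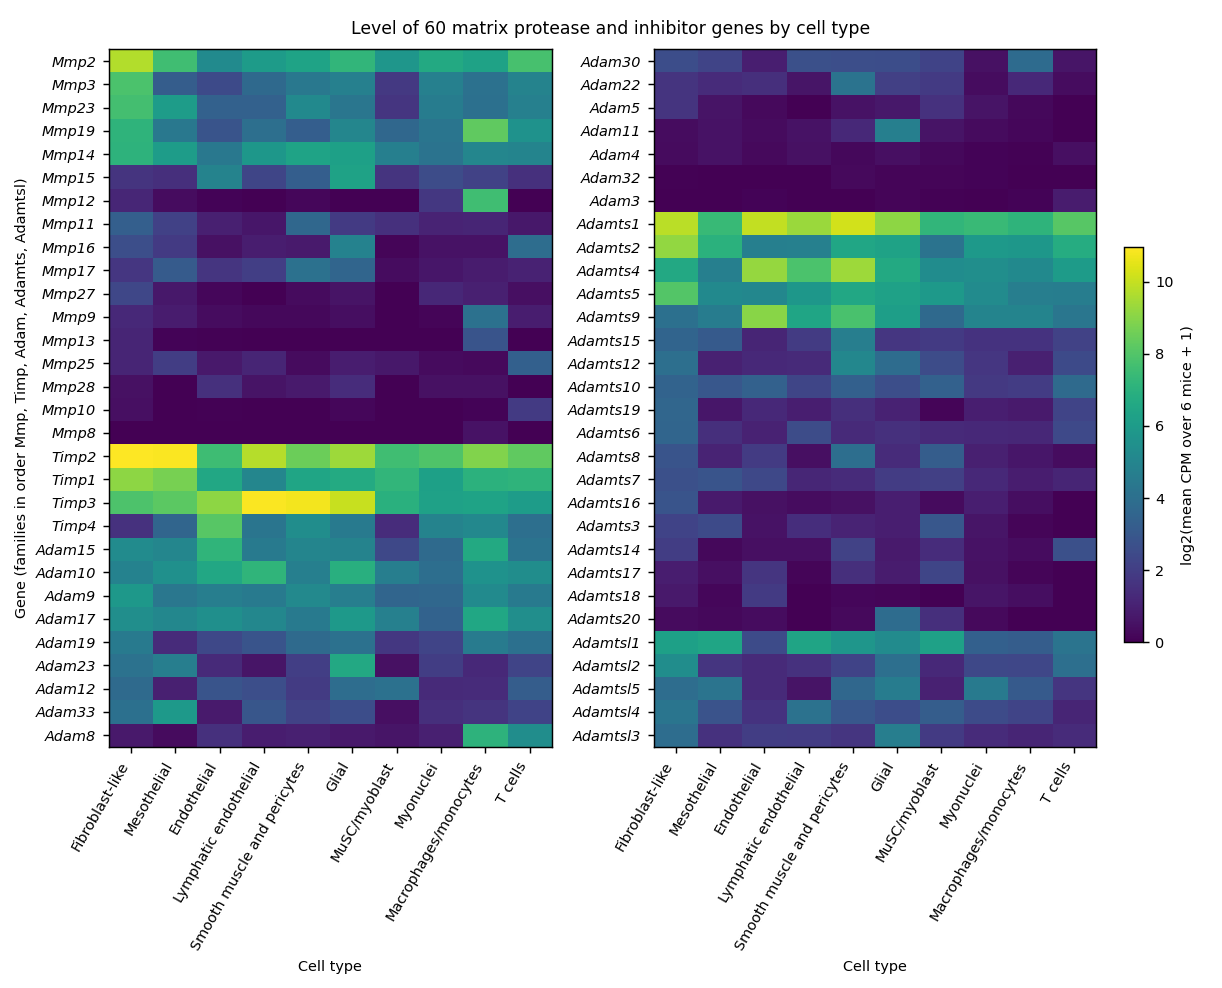
Level of the 60 members (rows) in 10 cell types (columns), as log2 of the mean CPM over the mice of both genotypes plus 1. Timp2 and Timp3 hold the highest levels, Mmp2 and Adamts2 stand out in fibroblast-like cells, Timp4 and Adamts9 in endothelial cells, and Mmp12 and Mmp19 in macrophages.

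Of the inhibitors, Timp2, which also helps to activate pro-MMP2 at the cell surface, was at 1999 ± 277 CPM in fibroblast-like cells and at 1913 ± 629 CPM in mesothelial cells, levels that overlapped between mice. Timp3, the inhibitor that stays bound to the matrix, was at 1928 ± 183 CPM in lymphatic endothelial cells and 1770 ± 505 CPM in smooth muscle cells and pericytes, again with overlap, and within the limits stated for the study it was highest in smooth muscle cells and pericytes, at 2993 ± 493 CPM. Timp1 was at 555 ± 549 CPM in fibroblast-like cells and at 420 ± 344 CPM in mesothelial cells. The wide SDs of Timp1 follow the genotypes, as described below for each cell type. Timp4 was at 278 ± 156 CPM in endothelial cells, and every mouse was above every mouse's level in the next type, smooth muscle cells and pericytes, at 40.5 ± 27.4 CPM.

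Of the proteases, the gelatinase Mmp2 was at 826 ± 244 CPM in fibroblast-like cells without overlap with any other type. The procollagen N-proteinase Adamts2 was at 583 ± 243 CPM and the aggrecanase Adamts5 at 261 ± 49.8 CPM in the same cells, both also without overlap with the next type. Within the limits stated for the study Mmp2 and Adamts2 kept this separation. Adamts5, at 271 ± 154 CPM, there overlapped with glial cells at 80.2 ± 73.9 CPM. Fibroblast-like cells thus held the top level of a gelatinase, a procollagen processor and a proteoglycanase. Adamts9, a versicanase, was at 521 ± 78.3 CPM in endothelial cells against 222 ± 37.5 CPM in smooth muscle cells and pericytes, with no overlap. Within the limits stated for the study its levels there overlapped, at 546 ± 101 and 377 ± 119 CPM. Adamts1 and Adamts4, both proteoglycan-cutting enzymes, were at 1197 ± 127 and 654 ± 233 CPM in smooth muscle cells and pericytes and at 987 ± 139 and 598 ± 179 CPM in endothelial cells. For these genes the vascular cell types overlapped over all barcodes, but within the limits stated for the study Adamts4 was at 1336 ± 291 CPM in smooth muscle cells and pericytes and 628 ± 221 CPM in endothelial cells, without overlap.

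In macrophages, Mmp19 was at 309 ± 50.3 CPM, above fibroblast-like cells (141 ± 86.1 CPM) in every mouse. Other members with their highest level in macrophages were Mmp12, the macrophage elastase, at 191 ± 271 CPM (49.7 ± 41.9 CPM within the limits), Adam8 at 137 ± 59.1 CPM and the sheddase Adam17, which ranged from 67.1 to 108 CPM over the mice. Adam15 was highest in endothelial cells (142 ± 22.5 CPM), and the membrane-anchored Mmp15 was highest in glial cells (79.5 ± 6.59 CPM). Adam12 was highest in muscle stem cells (16.2 ± 14.5 CPM), with overlap with glial cells (13.9 ± 3.81 CPM). The sheddase Adam10 was highest in lymphatic endothelial cells (145 ± 20.9 CPM), and Mmp14, the membrane-type MMP that activates pro-MMP2, in fibroblast-like cells (136 ± 37.6 CPM). Of the members named in this paragraph, only Mmp19 and Mmp15 did not overlap between mice with the next type. Within the limits stated for the study, Mmp19 and Adam8 did not overlap and Mmp15 did.

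The main question was how the genotypes differed in fibroblast-like cells. There, Timp1, Mmp19, Adamtsl2, Adamts2 and Adam12 were higher in Aromhum mice and Timp4, Adam33 and Adamts9 were lower, with the largest counts moved by Timp1 and Adamts2. UMIs were summed per mouse and tested by edgeR's quasi-likelihood test over all genes, and a gene was called when its Benjamini-Hochberg adjusted p was under 0.05. Of 55 members tested, 18 were called (32.7%), against 13% of all genes tested. In the direction of higher in Aromhum there were 14 members (25.5%), against 7.51% of all genes, and in the direction of lower there were 4 (7.27%), against 5.54%. The median log2 fold change was 0.33 over the members tested and 0.01 over all genes. Adam3, Adam32, Mmp8, Mmp10 and Mmp13 did not pass the filter on counts per mouse and were not tested.

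Timp1, which inhibits most secreted MMPs, was at 159, 164 and 166 CPM in fibroblast-like cells of WT mice and at 1482, 960 and 400 CPM in those of Aromhum mice. All Aromhum mice lay above all WT mice, with mouse 3 the lowest of them (log2 fold change 2.54 ± 0.45 SE, adjusted p = 0.0246). Timp2, the most abundant inhibitor, was at 2547, 1772 and 1873 CPM in WT and 1910, 1975 and 1918 CPM in Aromhum mice, which overlapped (log2 fold change -0.12 ± 0.19, adjusted p = 0.688). Timp3 was at 243, 242 and 243 CPM in WT and 223, 298 and 181 CPM in Aromhum mice (log2 fold change -0.07 ± 0.19, adjusted p = 0.839). The inhibitors therefore did not move together in these cells. Timp4 was scarce, at 2.51, 3.66 and 2.89 CPM in WT and 0.925, 0.687 and 1.11 CPM in Aromhum mice, and was called lower (log2 fold change -1.75 ± 0.23, adjusted p = 0.0191). Its level in fibroblast-like cells was 0.570% to 0.808% of that in endothelial cells of the same mouse. The endothelial marker Cdh5, 1 of 7 on the list, was at 0.508% to 0.907% of its own endothelial level there. All 7 summed to 54.9 to 71.2 CPM in WT and 58.4 to 63.4 CPM in Aromhum fibroblast-like cells. In endothelial cells they summed to 4552 to 4982 and 3953 to 4231 CPM, so their sum was a larger share of its endothelial level than Timp4. The part of endothelial RNA in the Timp4 value was not tested.

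Of the MMPs, 5 of 14 tested were called higher and none lower. Mmp19 was at 66.4, 65.7 and 61.6 CPM in WT and at 226, 244 and 182 CPM in Aromhum mice, with a wide gap between the genotypes (log2 fold change 1.74 ± 0.15, adjusted p = 0.00851). Mmp2 was at 682, 587 and 602 CPM in WT and 1097, 1136 and 854 CPM in Aromhum mice (log2 fold change 0.71 ± 0.17, adjusted p = 0.0411). Mmp23 was at 166, 133 and 145 CPM in WT and 287, 272 and 213 CPM in Aromhum mice (log2 fold change 0.78 ± 0.17, adjusted p = 0.0355). Neither gene overlapped between genotypes, and the fold changes of both were smaller than that of Mmp19. The others called were the low-level Mmp17 (log2 fold change 1.30 ± 0.32, adjusted p = 0.0421) and Mmp9, a gelatinase, at 4, 0 and 0 UMIs in WT and 271, 273 and 24 UMIs in Aromhum mice (adjusted p = 0.0342). The summed level of macrophage markers in these cells was 15.6 to 17.9 CPM in WT and 22.3 to 51.4 CPM in Aromhum mice, and its part in Mmp9 was not tested. Mmp14 was at 132, 91.2 and 97.5 CPM in WT and 185, 169 and 142 CPM in Aromhum mice and did not pass the threshold (log2 fold change 0.61 ± 0.20, adjusted p = 0.0832).

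Mmp3 (stromelysin-1), which cuts proteoglycans and activates other pro-MMPs, was at 86.5, 54.6 and 39.0 CPM in WT and at 466, 665 and 77.8 CPM in Aromhum mice. Aromhum mouse 3 lay below WT mouse 1, so the genotypes overlapped, and the gene was not called (log2 fold change 2.74 ± 0.75, adjusted p = 0.0534). Without Aromhum mouse 3, the lowest Aromhum value, it was called (log2 fold change 3.22 ± 0.34, adjusted p = 0.00171). Of the other members in its gene cluster on chromosome 9, Mmp13 and Mmp10 were at 0 in Aromhum mouse 3. Mmp8 had 12 UMIs in Aromhum mouse 2 and 0 in the other mice. Mmp27 overlapped between genotypes, at 5.92, 1.81 and 2.28 CPM in WT and 5.34, 6.77 and 2.24 CPM in Aromhum mice. Mmp12 had 0, 11 and 25 UMIs in WT and 234, 104 and 32 in Aromhum mice, and was not called. Its counts are not scaled to the total UMIs of these cells. That total was 16630949 in WT mouse 3 and 71371644 and 49497130 in Aromhum mice 2 and 3. Scaled to it, Mmp12 in Aromhum mice 2 and 3 lay below WT mouse 3, so the genotypes overlapped. The collagenase Mmp13 had 0 UMIs in fibroblast-like cells of every WT mouse and 336, 136 and 0 UMIs in Aromhum mice, and Mmp10 (stromelysin-2) had 0 in every WT mouse and was at 1.00, 1.08 and 0 CPM in Aromhum mice. Against a floor of 3 UMIs over the WT mice together, the Aromhum mice as a group were at least 61.2-fold higher for Mmp13 (27.3-fold without Aromhum mouse 1) and at least 18.5-fold higher for Mmp10, all of it from Aromhum mice 1 and 2. Both genes failed the filter on low counts over the 6 mice, with their UMIs in only 2 of them. Without that filter they were tested and not called (adjusted p = 0.141 for Mmp13 and 0.145 for Mmp10). Without Aromhum mouse 3 both passed the filter and were called (adjusted p = 0.00608 and 0.00352). That fit leaves out the Aromhum mouse at 0, so it adds no support. In the GRCm38 annotation these genes lie in a cluster of MMP genes on the plus strand, with Mmp13 at chr9:7272514-7283333, Mmp12 after it, Mmp3 at chr9:7445822-7455975 and Mmp10 at chr9:7502342-7510242.

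The 250 bases before an annotated start are shown for 6 members: the 3 chromosome 9 proteases, which share a motif, and Adamtsl2, Timp1 and Timp4, whose differences between genotypes recurred across cell types. Sequences are from RefSeq on GRCm38.p6, read 5′ to 3′ along the gene's strand, and 36 of the 60 members had an entry. Capitals mark TGANTCA, the letters of an AP-1 site, and TATAAA, the letters of a TATA box, both searched on both strands.
Mmp3, chr9:7445572-7445821, plus strand: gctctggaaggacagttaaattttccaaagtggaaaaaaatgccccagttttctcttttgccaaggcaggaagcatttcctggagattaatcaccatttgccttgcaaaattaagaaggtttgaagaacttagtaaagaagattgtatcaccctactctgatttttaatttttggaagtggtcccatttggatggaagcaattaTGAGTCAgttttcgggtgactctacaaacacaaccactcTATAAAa
Mmp10, chr9:7502092-7502341, plus strand: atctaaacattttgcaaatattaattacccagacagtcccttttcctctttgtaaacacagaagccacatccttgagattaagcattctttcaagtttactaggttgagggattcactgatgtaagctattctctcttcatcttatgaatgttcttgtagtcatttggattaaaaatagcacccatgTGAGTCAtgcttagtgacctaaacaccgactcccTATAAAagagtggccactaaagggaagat
Mmp13, chr9:7272264-7272513, plus strand: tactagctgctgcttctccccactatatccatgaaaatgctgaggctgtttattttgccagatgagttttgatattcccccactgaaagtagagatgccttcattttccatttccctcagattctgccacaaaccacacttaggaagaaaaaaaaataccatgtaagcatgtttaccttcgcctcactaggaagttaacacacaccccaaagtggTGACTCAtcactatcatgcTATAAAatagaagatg
Adamtsl2, chr2:27079129-27079378, plus strand: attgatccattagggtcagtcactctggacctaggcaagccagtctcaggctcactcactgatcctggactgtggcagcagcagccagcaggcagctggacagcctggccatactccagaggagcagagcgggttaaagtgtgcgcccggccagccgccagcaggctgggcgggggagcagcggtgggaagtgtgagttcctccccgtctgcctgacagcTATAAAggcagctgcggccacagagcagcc
Timp1, chrX:20869916-20870165, plus strand: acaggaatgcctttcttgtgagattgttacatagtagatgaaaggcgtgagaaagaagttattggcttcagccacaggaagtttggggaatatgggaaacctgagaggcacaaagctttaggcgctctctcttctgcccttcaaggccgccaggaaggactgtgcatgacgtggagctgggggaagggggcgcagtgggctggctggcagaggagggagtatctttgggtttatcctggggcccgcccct
Timp4, chr6:115252206-115252455, minus strand: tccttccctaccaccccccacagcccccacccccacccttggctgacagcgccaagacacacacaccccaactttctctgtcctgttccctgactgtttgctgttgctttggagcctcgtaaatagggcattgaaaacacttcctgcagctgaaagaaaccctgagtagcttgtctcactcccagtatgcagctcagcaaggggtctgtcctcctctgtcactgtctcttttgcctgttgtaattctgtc

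TGANTCA was found before Mmp3, Mmp10 and Mmp13, ending 40, 57 and 29 bases before the start, and each of these promoters also held TATAAA, ending 2, 24 and 11 bases before it. Among all 32851 promoters of the same length in that table, 6.75% held TGANTCA and 12.4% held TATAAA. Among the members, TGANTCA stood also in a window of Adam19 (chr11:46055734-46055983) and of Mmp12 (chr9:7347124-7347373), which makes 5 members. Both windows lie before a later annotated start, and the window before the first start of each gene held none. TATAAA stood before Adamts1 and Adamtsl2 as well, also 5 in all. The windows of Timp1 and Timp4 held neither. The annotated gene of Adamtsl2 begins at chr2:27079336, so the end of its window, with its TATAAA, lies inside the gene. The palindromic estrogen response element, searched because aromatase makes estrogens, was in 0.0639% of all promoters and in 0 of those of the members. A match is a run of letters and not a shown binding site, and its absence says only that these letters are not in this window.

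Of the 18 Adamts genes, all tested, 6 were called higher and 1 lower. Adamts2, which removes the amino-terminal propeptide of fibrillar procollagens, was at 379, 329 and 385 CPM in WT and 862, 796 and 745 CPM in Aromhum mice (log2 fold change 1.12 ± 0.14, adjusted p = 0.0172). The genotypes were far apart and the spread within each was small. Adamts1 was at 740, 686 and 696 CPM in WT and 1133, 1214 and 961 CPM in Aromhum mice (log2 fold change 0.63 ± 0.15, adjusted p = 0.0394). Lower on this scale were Adamts8 at 4.03, 2.82 and 1.80 against 9.20, 10.1 and 9.01 CPM (adjusted p = 0.0214), Adamts15 at 2.88, 4.08 and 2.71 against 20.9, 26.9 and 5.56 CPM (adjusted p = 0.0389), Adamts19 (log2 fold change 1.27 ± 0.25, adjusted p = 0.0283) and Adamts18 (log2 fold change 2.94 ± 0.62, adjusted p = 0.0324). Each of these was still higher in every Aromhum mouse than in any WT mouse. Adamts9 went the other way, from 16.7, 19.3 and 24.5 CPM in WT to 10.9, 9.82 and 12.6 CPM in Aromhum mice (log2 fold change -0.88 ± 0.15, adjusted p = 0.0238). Adamts5 was at 293, 282 and 196 CPM in WT and 240, 331 and 223 CPM in Aromhum mice, and the groups overlapped fully (log2 fold change 0.03 ± 0.22, adjusted p = 0.941).

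Of the ADAMTS-like genes, Adamtsl2, which binds fibrillin microfibrils and is tied to TGF-β in connective tissue disease, was at 12.9, 14.5 and 20.8 CPM in WT and 72.1, 60.4 and 60.6 CPM in Aromhum mice (log2 fold change 2.00 ± 0.19, adjusted p = 0.0134). Adamtsl4, another microfibril-associated protein, was at 20.2, 21.5 and 23.9 CPM in WT and 11.0, 12.5 and 18.3 CPM in Aromhum mice (log2 fold change -0.68 ± 0.17, adjusted p = 0.0455). Among 14 Adam genes tested, Adam12 was at 5.77, 3.11 and 2.59 CPM in WT and 28.1, 26.6 and 10.4 CPM in Aromhum mice (log2 fold change 2.46 ± 0.48, adjusted p = 0.0280). Adam12 is best known from fusing muscle cells and from fibroblasts of injured tissue. Adam33 fell, from 20.9, 18.1 and 25.8 CPM in WT to 6.99, 9.53 and 11.6 CPM in Aromhum mice (log2 fold change -1.23 ± 0.20, adjusted p = 0.0217). The other 12 tested Adam genes, Adam9, Adam10, Adam15 and Adam17 among them, were not called.

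**Figure D2:**
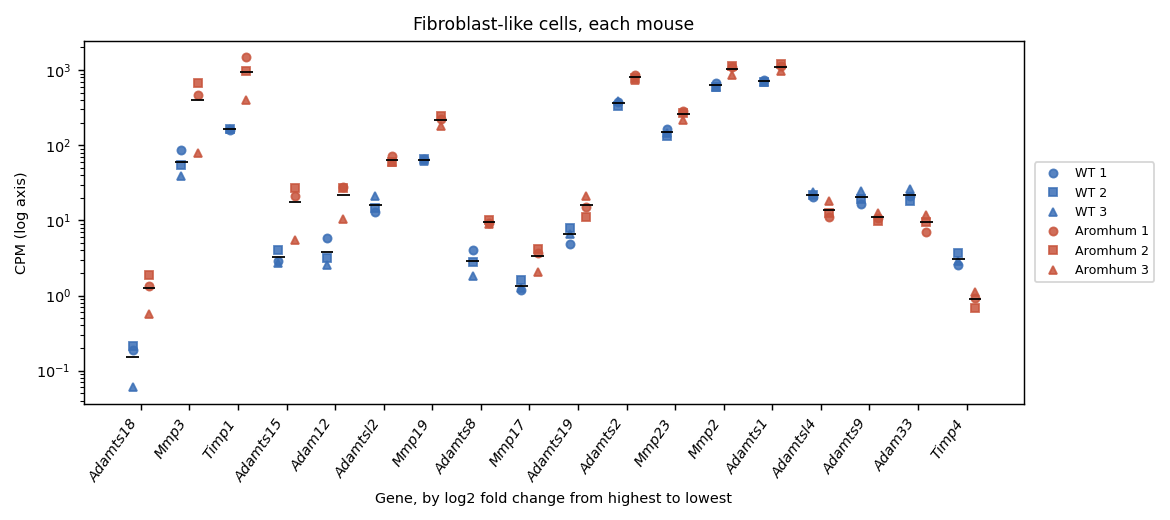
Level in fibroblast-like cells of 17 of the 18 called members and of Mmp3, as CPM on a log axis, with 1 point per mouse and a bar at the mean of each genotype. WT and Aromhum points are apart for each called member, Aromhum mouse 3 is the lowest Aromhum point for Timp1, Adam12 and Adamts15, and for Mmp3 it lies among the WT points. Mmp9 is left out because 2 WT mice are at 0.

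Fibroblast-like cells fell into different subclusters by genotype: subclusters 1, 4, 5 and 8 held 20, 26, 7 and 19 WT cells and 2223, 1505, 1495 and 1103 Aromhum cells. Equal weight could be given only to the 14 of 22 subclusters with at least 10 cells in every mouse, which leaves out subclusters 1, 4, 5 and 8. In that comparison, tested with limma on log2 of the mean CPM plus 1, 10 of 39 members were called, among 331 of 9249 genes. The log2 fold change was then 1.47 for Timp1, 0.94 for Mmp19, 0.90 for Adamtsl2, 0.69 for Adamts2, 1.43 for Adam12, -0.77 for Adam33 and -1.16 for Timp4, all called, and -0.32 for Adamts9, which was not (adjusted p = 0.252). These differences were smaller than those over all fibroblast-like cells, and for scarce genes such as Timp4 the added 1 CPM also lowers them.

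The calls in fibroblast-like cells also depended on single mice and on the barcodes used. The directions of the called members were kept whichever mouse was left out, which follows from genotypes that did not overlap and is no further support. Without WT mouse 1, 2 or 3 the number of called members was 4, 0 or 1, and without Aromhum mouse 1, 2 or 3 it was 0, 1 or 32. The calls over all genes moved too, to 4139 of 14056 genes without Aromhum mouse 3 and to between 4 and 121 genes without any other mouse. The 32 held all 18 and added Mmp3, Mmp10, Mmp13, Mmp14 and Mmp15, among others. Within the limits stated for the study, none of 41 tested members was called, and 1 gene of 10902 was called at all, so the background was also near 0. Of the members within these limits, 14 were under an unadjusted p of 0.05, and the share of all genes under it is not given here. There Timp1 was at 144, 163 and 200 CPM in WT and 720, 604 and 284 CPM in Aromhum mice (log2 fold change 1.62, adjusted p = 0.142), Mmp19 had a log2 fold change of 0.92 (adjusted p = 0.152), Adamtsl2 of 0.89 (adjusted p = 0.284) and Adamts2 of 0.53 (adjusted p = 0.182), and Adamtsl4 turned to 0.21.

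Fibroblast-like cells were then split into subgroups named from marker lists, and 9600 of the 23653 cells stayed unnamed. Except for fibro-adipogenic progenitors, described below, the lists held markers given by the study, with the members taken out. Esr1hi HAFs, hernia-associated fibroblasts named for the estrogen receptor α gene, numbered 200, 193 and 68 in WT and 1667, 2069 and 731 in Aromhum mice. Most WT cells came from subclusters 11 (92, 140 and 43 cells) and 18 (71, 49 and 20), and most Aromhum cells from subclusters 1 (951, 1030 and 242) and 4 (455, 762 and 288). The name is weak for the WT cells: Esr1, pooled over the mice, was at 89.0 and 67.9 CPM in WT cells of subclusters 11 and 18, below the 134 and 163 CPM in WT cells of the unnamed subclusters 3 and 16, and at 154 and 287 CPM in Aromhum cells of subclusters 1 and 4. The genotypes were thus compared in this subgroup largely between different subclusters. Of 46 members tested in them, 17 were called (37.0%), against 13.3% of all genes: 8 were higher, against 5.37%, and 9 lower, against 7.95%. Adamtsl2 was at 35.5, 25.6 and 40.2 CPM in WT and 123, 110 and 127 CPM in Aromhum mice (log2 fold change 1.84 ± 0.17, adjusted p = 0.000597). Mmp19 was at 143, 100 and 95.2 CPM in WT and 385, 435 and 437 CPM in Aromhum mice (log2 fold change 1.86 ± 0.19, adjusted p = 0.000686). These and Adamts2 (508, 508 and 533 against 1175, 1105 and 1313 CPM, adjusted p = 0.001502) were called whichever mouse was left out. Timp1 was at 143, 102 and 313 CPM in WT and 1663, 1024 and 467 CPM in Aromhum mice (log2 fold change 2.56 ± 0.53, adjusted p = 0.0161) and was called in 3 of the 6 fits that left out a mouse. Mmp3 was at 42.5, 40.7 and 50.8 CPM in WT and 110, 115 and 7.17 CPM in Aromhum mice and was not called (log2 fold change 0.84 ± 0.85, adjusted p = 0.553). Aromhum mouse 3 was here below all WT mice. The number of called members was 6 without WT mouse 2, 8 without Aromhum mouse 1, 10 without Aromhum mouse 2 and 12 to 17 without any other mouse. Subclusters 11 and 18 held at least 20 cells in every mouse and were also tested alone, a choice made after seeing the data. In subcluster 18, 4 of 27 members were called, among 124 of 7417 genes: Mmp19 (log2 fold change 1.97 ± 0.29, adjusted p = 0.0103), Adamts2 (0.90 ± 0.17, adjusted p = 0.0276) and Adamts1 (0.84 ± 0.17, adjusted p = 0.0363) were higher in Aromhum mice and Timp4 was lower. Adamtsl2 (adjusted p = 0.0785) and Timp1 (adjusted p = 0.155) were not called there. In subcluster 11, of cells with a median of 1314 UMIs, Timp1 was the only call of 14 members, among 83 of 2713 genes (log2 fold change 2.44 ± 0.48, adjusted p = 0.00322).

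The members called lower in Esr1hi HAFs were led by Timp4, at 35.5, 61.6 and 42.3 CPM in WT and 1.70, 1.40 and 2.17 CPM in Aromhum mice (log2 fold change -4.75 ± 0.28, adjusted p = 0.000172), and Adamts9, at 46.8, 54.6 and 63.4 against 7.08, 7.61 and 11.9 CPM (adjusted p = 0.000382). Adamts5 was at 189, 203 and 86.7 CPM in WT and 68.1, 71.6 and 66.7 CPM in Aromhum mice (log2 fold change -1.26, adjusted p = 0.0181), called in 3 of the 6 fits that left out a mouse. Timp4 and Adamts9 are members whose highest level was in endothelial cells, and the summed level of 7 endothelial markers in Esr1hi HAFs was 494 to 646 CPM in WT against 98.6 to 123 CPM in Aromhum mice. Timp4 there was at 8.34%, 13.6% and 11.4% of its endothelial level in WT and 1.40%, 1.16% and 1.25% in Aromhum mice. Of the 7 markers, Cdh5 was at 11.1% to 12.1% and 1.04% to 1.63%. In endothelial cells the 7 summed to 4552 to 4982 CPM in WT and 3953 to 4231 CPM in Aromhum mice. In Aromhum Esr1hi HAFs their sum was thus a larger share of its endothelial level than Timp4. The part of endothelial RNA in Timp4 and Adamts9 was not tested. Subcluster 18, with the endothelial genes Cldn5 and Gpihbp1 among its leading genes, carried 118 WT UMIs of Timp4 and 128 of Adamts9, whereas subcluster 11 carried 4 and 13. Within subcluster 18, pooled over the mice, Timp4 was at 71.6 CPM in WT and 26.6 CPM in Aromhum cells, and Adamts9 at 77.6 and 69.3 CPM. Tested in subcluster 18 alone, Timp4 was called with a smaller log2 fold change of -1.51 ± 0.28 (adjusted p = 0.0255), and Adamts9 was not called (log2 fold change -0.25 ± 0.23, adjusted p = 0.662), nor was Adamts5 (-0.026, adjusted p = 0.99).

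Fibro-adipogenic progenitors (FAPs) are muscle-resident stromal progenitors. They were named here from Pi16, Dpp4, Cd55, Sema3c, Tppp3 and Anxa3, which is not the study's list. In the study, Tppp3 and Pi16 are leading genes of the FAP cluster, and Dpp4, Cd55, Sema3c and Anxa3 of the Dmkn cluster. The name rests here on 1 subcluster of 1306 cells with a score of 0.6 on the FAP list (the mean over its markers of the level in SDs across subclusters) and with Lars2 and the hemoglobin genes Hba-a1 and Hbb-bs among its leading genes, while the subclusters named Dmkn fibroblasts scored 1.12 to 1.41 on the FAP list and still higher on their own. In these FAP-like cells, 6 of 32 tested members were called, all higher in Aromhum mice (18.8%), against 1.87% of all genes in either direction and 1.12% in that one. Timp1 was at 71.3, 173 and 106 CPM in WT and at 378, 439 and 375 CPM in Aromhum mice (log2 fold change 1.74 ± 0.22, adjusted p = 0.000751). Adamtsl2 was at 11.4, 17.9 and 19.9 CPM in WT and 50.7, 40.8 and 48.1 CPM in Aromhum mice (log2 fold change 1.501 ± 0.200, adjusted p = 0.00103). Mmp19 was at 40.2, 46.1 and 59.7 CPM in WT and 97.5, 104 and 90.7 CPM in Aromhum mice (log2 fold change 1.00, adjusted p = 0.00370). These 3 and Adamts2 (259, 250 and 286 against 529, 480 and 447 CPM) were called whichever mouse was left out, and the 3 Aromhum mice were close to each other. Adamts1 was also called. Mmp3, at 17.4, 30.6 and 26.8 CPM in WT and 134, 105 and 36.5 CPM in Aromhum mice, was called with all mice (adjusted p = 0.0310) but in only 1 of the 6 fits that left out a mouse. Within the limits stated for the study, 1 of 20 tested members was called in the FAP-like cells, where 21 of 4155 genes were called in all.

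In tenocytes, the cells of tendon, 3 of 30 tested members were called (10.0%), against 1.25% of all genes. These were Mmp23 (124, 98.9 and 102 against 334, 236 and 238 CPM), Adamtsl2 (7.42, 11.0 and 10.1 against 26.6, 32.7 and 39.7 CPM) and Adamts2 (511, 381 and 383 against 764, 670 and 838 CPM), each higher in every Aromhum mouse than in any WT mouse. Without WT mouse 2 or WT mouse 3 none was called, and without Aromhum mouse 3 there were 10. Mmp13 was at 138, 20.2 and 0 CPM in tenocytes of Aromhum mice and at 0 in those of WT mice. Of its 333 UMIs, 312 came from Aromhum mouse 1, and the group was at least 87.8-fold higher with that mouse and at least 8.38-fold higher without it. In Dmkn fibroblasts, only Adam12 was called of 41 tested members (2.44%), against 0.740% of all genes, at 0.649, 0.992 and 0.595 CPM in WT and 13.5, 12.0 and 7.70 CPM in Aromhum mice (log2 fold change 3.88 ± 0.43, adjusted p = 0.0214). It was called in 1 of the 6 fits that left out a mouse, the one without Aromhum mouse 3. Dmkn fibroblasts included subcluster 5, with 6, 0 and 1 WT cells and 434, 1050 and 11 Aromhum cells. The genotypes were thus compared partly between different subclusters here too. Adamts5 was far higher in these cells than in Esr1hi HAFs, at 866, 754 and 838 CPM in WT and 731, 893 and 668 CPM in Aromhum mice. Mmp3hi HAFs were too few to test: only WT mouse 1, with 83 cells, had more than 10 in WT, and its Mmp3 level was 616 CPM against 1494, 2324 and 668 CPM in Aromhum mice, with Timp1 at 182 against 2434, 1544 and 750 CPM.

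**Figure D3:**
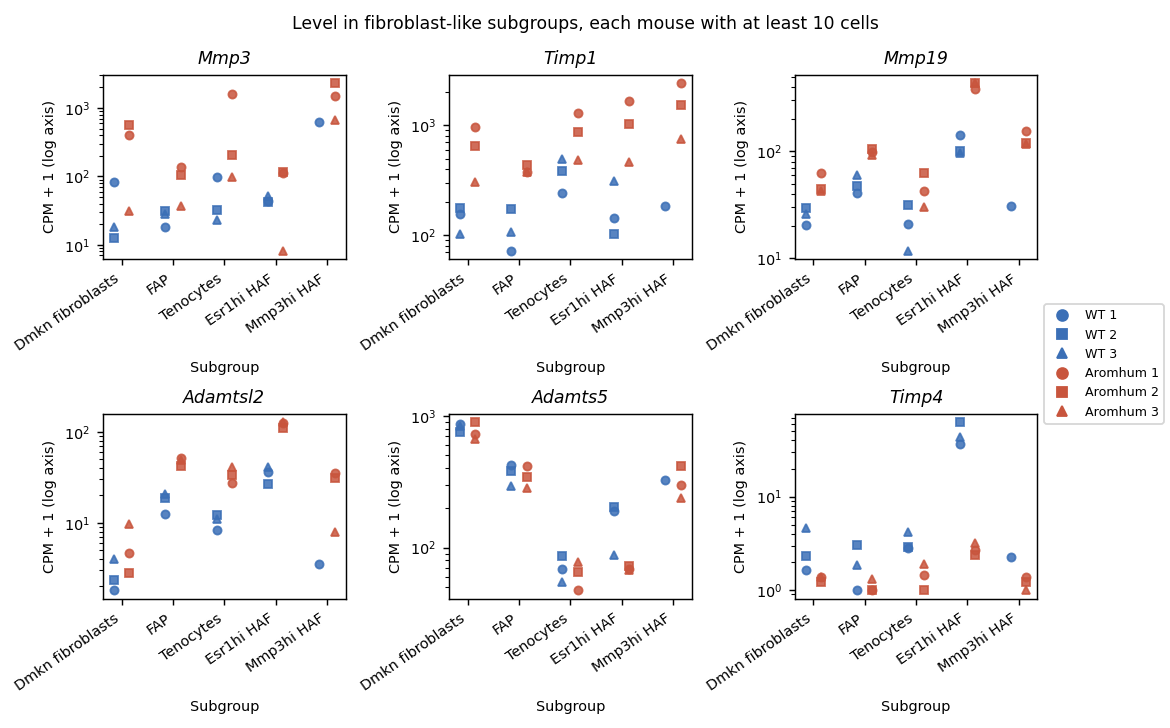
Level of Mmp3, Timp1, Mmp19, Adamtsl2, Adamts5 and Timp4 in subgroups of fibroblast-like cells, as CPM + 1 on a log axis, with 1 point for each mouse that had at least 10 cells. Timp1 and Adamtsl2 are higher in the Aromhum mice of FAP-like cells and Esr1hi HAFs, Adamts5 is highest in Dmkn fibroblasts of both genotypes, and Mmp3 of Aromhum mouse 3 lies near or below the WT points.

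Summing all barcodes of a mouse gives the level in the dissociated tissue, where fewer cells of a type and less RNA per cell cannot be told apart. Of 55 members tested, 20 were called (36.4%), against 23.6% of all genes: 17 were higher in Aromhum mice, against 12.4%, and 3 lower, against 11.2%. Timp1 rose from 104, 78.6 and 66.1 CPM in WT to 1033, 759 and 288 CPM in Aromhum mice (log2 fold change 3.11 ± 0.52, adjusted p = 0.0181), and Adamtsl2 from 7.26, 5.996 and 6.94 to 46.2, 40.7 and 34.5 CPM (log2 fold change 2.62 ± 0.17, adjusted p = 0.0154). Fibroblast-like cells, which held 64.5% to 74.9% of the Timp1 UMIs in WT and 74.2% to 86.4% in Aromhum mice, were 36.4%, 23.9% and 21.5% of barcodes in WT and 42.1%, 50.8% and 40.3% in Aromhum mice. Mmp3 was called in this sum, at 44.1, 20.5 and 10.8 CPM in WT and 293, 438 and 43.9 CPM in Aromhum mice (log2 fold change 3.41 ± 0.96, adjusted p = 0.0487), with mouse 3 of Aromhum just below WT mouse 1. Called lower were Timp4, from 115, 162 and 168 to 18.2, 14.3 and 39.5 CPM (log2 fold change -2.61 ± 0.39, adjusted p = 0.0179), Timp3, from 501, 534 and 708 to 317, 390 and 389 CPM (log2 fold change -0.64 ± 0.16, adjusted p = 0.0390), and Mmp15. Endothelial cells, where Timp4 was highest, were 31.5%, 36.5% and 39.7% of barcodes in WT and 19.2%, 13.7% and 25.5% in Aromhum mice, and their 7 markers summed to 1358 to 2384 CPM in WT and 499.6 to 980.3 CPM in Aromhum mice. The part of these shares in the lower levels was not tested. Mmp13 had 0 UMIs in every WT mouse and 581, 214 and 0 in Aromhum mice, at least 172-fold higher as a group and 71.1-fold without Aromhum mouse 1, and 35.05% to 41.1% of these UMIs in the 2 mice that had any came from macrophages. The count of 20 was 23 without WT mouse 1 and 27 without Aromhum mouse 3, and 0 without any of the other 4.

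In endothelial cells, 18 of 41 tested members were called (43.9%), against 18.7% of all genes: 16 were higher in Aromhum mice, against 10.6%, and 2 lower, against 8.15%. Timp4, abundant there, fell from 425, 453 and 372 CPM in WT to 122, 120 and 173 CPM in Aromhum mice (log2 fold change -1.65 ± 0.18, adjusted p = 0.00146). The genotypes were far apart, and the call held whichever mouse was left out and within the limits stated for the study (log2 fold change -1.26, adjusted p = 0.00878). Mmp15 fell from 24.9, 43.5 and 40.3 to 17.9, 23.1 and 24.3 CPM (log2 fold change -0.80 ± 0.21, adjusted p = 0.0293), called in 2 of the 6 fits that left out a mouse. Timp1 rose from 39.4, 27.3 and 28.3 to 224, 159 and 92.5 CPM (log2 fold change 2.25 ± 0.29, adjusted p = 0.00288), Adamts5 from 20.8, 20.6 and 17.1 to 55.1, 38.5 and 43.9 CPM (log2 fold change 1.17 ± 0.15, adjusted p = 0.00288) and Adam9, a widely expressed sheddase, from 18.8, 19.2 and 20.4 to 29.9, 31.3 and 30.3 CPM (log2 fold change 0.58 ± 0.10, adjusted p = 0.00797). Every Aromhum mouse was above every WT mouse for these 3 genes. Without 1 mouse the number of called members was 15 to 22.

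Several of the 16, Adamts2, Mmp2 and Mmp23 among them, had their highest level in fibroblast-like cells. Adamts2 was at 3.97, 4.38 and 4.46 CPM in endothelial cells of WT mice and 50.2, 64.5 and 27.7 CPM in those of Aromhum mice (log2 fold change 3.38 ± 0.28, adjusted p = 0.000902), and Mmp2 at 13.1, 8.76 and 13.0 against 60.7, 80.6 and 43.3 CPM (log2 fold change 2.32 ± 0.24, adjusted p = 0.00141). In the same cells the summed level of 9 fibroblast markers was 425 to 546 CPM in WT and 1973 to 4603 CPM in Aromhum mice, while that of 7 endothelial markers was 4552 to 4982 and 3953 to 4231 CPM. All 9 fibroblast markers were called higher, from a log2 fold change of 1.71 for Dcn to 3.83 for Col1a1. As a percentage of the level in fibroblast-like cells of the same mouse, these markers averaged 0.804% to 1.60% in WT and 4.13% to 10.4% in Aromhum mice. Adamts2 moved likewise, from 1.05%, 1.33% and 1.16% to 5.83%, 8.10% and 3.71%, as did Mmp2, from 1.92%, 1.49% and 2.16% to 5.53%, 7.09% and 5.07%, and Mmp23, from 1.33%, 1.12% and 0.755% to 7.83%, 7.42% and 4.65%. Timp1 was at 24.9%, 16.6% and 17.01% in WT and 15.1%, 16.5% and 23.1% in Aromhum mice, and Adam9 at 42.0%, 33.1% and 42.6% and 44.5%, 49.2% and 50.9%, both above all 9 markers in every WT mouse. The highest marker was at 16.5%, 9.69% and 6.45% in Aromhum mice. Timp1 was thus below it in Aromhum mouse 1 and above it in mice 2 and 3, and Adam9 was above it in each. The endothelial cells included a cluster of 385 barcodes led by Ube2c, Birc5 and Top2a, which scored 0.94 on the endothelial and 0.67 on the fibroblast list. The part of fibroblast RNA, or of this cluster, in the endothelial values was not tested.

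Whether the genotypes differed by different amounts in the 2 cell types was tested as the interaction of cell type and genotype with the mouse as a term. Of 52 members tested, 19 were called (36.5%), against 15.1% of all genes: for 18 the log2 fold change in fibroblast-like cells was lower than in endothelial cells, against 10.7% of all genes, and for 1 it was higher, against 4.42%. The 1 was Mmp15, lower in endothelial cells of Aromhum mice and at 0.558, 1.26 and 0.962 CPM in WT and 4.82, 3.77 and 1.52 CPM in Aromhum mice in fibroblast-like cells (difference 2.54 ± 0.56, adjusted p = 0.0209). This interaction was called in 2 of the 6 fits that left out a mouse, and over all alternatives its difference went down to 0.34. The 18 were led by Mmp23 (difference -2.62 ± 0.23, adjusted p = 0.000844), Mmp2 (difference -1.66 ± 0.16, adjusted p = 0.00130) and Adamts2 (difference -2.24 ± 0.24, adjusted p = 0.00156). The fibroblast marker values given above stand beside these as well. Adam33 and Adamts3, among the 18, did not pass the filter on counts in endothelial cells alone. Timp1 and Timp4 did not pass, with differences of 0.10 ± 0.23 (adjusted p = 0.802) and -0.12 (adjusted p = 0.669), so that a fold change of Timp1 in fibroblast-like cells differing from that in endothelial cells was not detected. The number called was 9 to 24 when 1 mouse was left out.

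**Figure D4:**
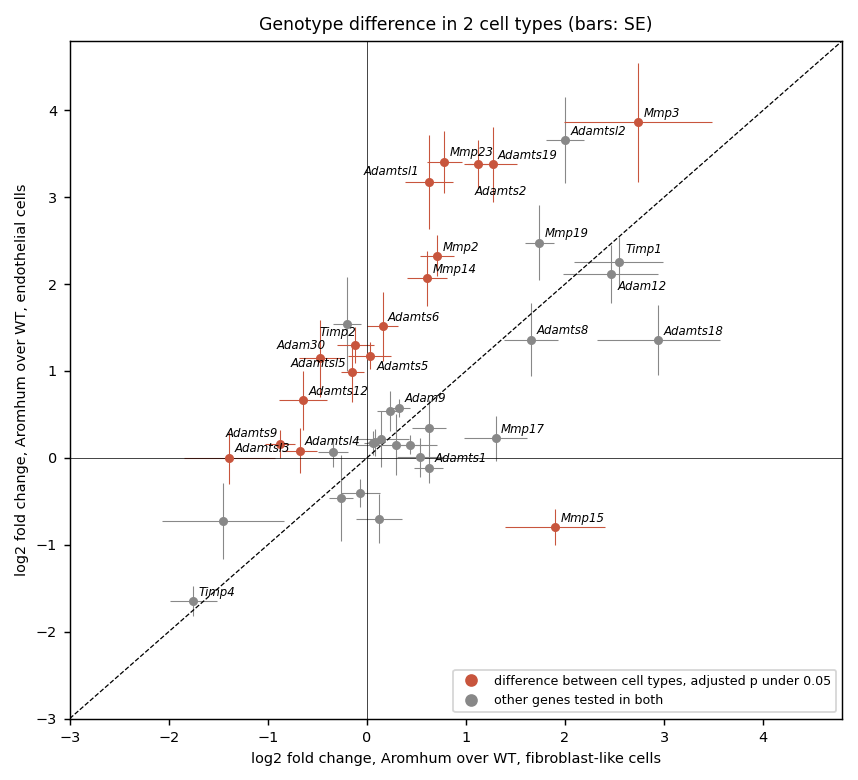
Log2 fold change (Aromhum over WT) of 41 members in endothelial cells against that in fibroblast-like cells, with SE bars and with the 17 of them whose interaction was called in red. Timp1 lies high and Timp4 low on both axes, whereas Adamts2, Mmp23 and Mmp2 are further from 0 in endothelial cells than in fibroblast-like cells.

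In smooth muscle cells and pericytes, 2 of 31 members were called (6.45%), against 1.07% of all genes. Timp1 was at 26.6, 36.9 and 11.3 CPM in WT and 206, 181 and 58.7 CPM in Aromhum mice (log2 fold change 2.50, adjusted p = 0.0384), and Adamts2 at 58.9, 55.6 and 41.2 against 158, 142 and 83.7 CPM (adjusted p = 0.0384). The summed fibroblast markers there were 3066 to 5765 CPM in WT and 5477 to 7389 CPM in Aromhum mice, and their part was not tested. Against fibroblast-like cells, the interaction called 5 of 49 members (10.2%), against 2.95% of all genes. Timp3 was at 1652, 1143 and 1300 CPM in WT and 2338, 2334 and 1855 CPM in Aromhum smooth muscle cells and pericytes, whereas it overlapped in fibroblast-like cells (difference -0.77 ± 0.18, adjusted p = 0.0484). Adamts15 was at 19.3, 27.2 and 32.1 CPM in WT and 24.5, 27.7 and 17.4 CPM in Aromhum smooth muscle cells and pericytes, against its rise in fibroblast-like cells (difference 2.49 ± 0.41, adjusted p = 0.0170). The other 3 were Adamts4, Adamts9 and Adamts12. Without Aromhum mouse 3 there were 9 members called in these cells and 10 in the interaction, and without any other mouse there were 0 in the cells and 0 or 1 in the interaction.

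In mesothelial cells, which line the abdominal cavity and numbered 147, 173 and 68 in WT and 649, 1002 and 674 in Aromhum mice, 2 of 36 members were called (5.56%), against 0.283% of all genes. Mmp2 was at 79.4, 119 and 108 CPM in WT and 310, 271 and 282 CPM in Aromhum mice (log2 fold change 1.56, adjusted p = 0.0276), and Timp1 at 93.1, 202 and 127 against 832, 845 and 420 CPM (log2 fold change 2.38, adjusted p = 0.0458). Both were higher in every Aromhum mouse than in any WT mouse, where fibroblast markers summed to 16576 to 17948 CPM in WT and 19826 to 20669 CPM in Aromhum mice, and their part was not tested. The interaction with fibroblast-like cells called 0 of 50 members by edgeR, against 1.45% of all genes, with 16 under an unadjusted p of 0.05, and 0 by limma-voom, with 13 under it. The share of all genes under that unadjusted cut is not given here. In glial cells, 2 of 32 members were called (6.25%), against 0.312% of all genes: Adamtsl1, at 21.4, 19.2 and 17.4 CPM in WT and 52.1, 79.7 and 41.5 CPM in Aromhum mice (adjusted p = 0.0257), and Mmp19, at 14.7, 15.6 and 12.1 against 58.2, 65.8 and 25.8 CPM (adjusted p = 0.0452). Fibroblast markers in glial cells summed to 8834 to 10647 CPM in WT and 11532 to 14186 CPM in Aromhum mice, and their part was not tested. In mesothelial cells no member was called without any 1 mouse other than Aromhum mouse 3, without which there were 9, and in glial cells there were 7 without Aromhum mouse 3 and 0 or 1 otherwise.

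In muscle stem cells and myoblasts, Adamts1 was the only call of 20 members (5.00%), against 2.12% of all genes, and it was lower, at 159, 188 and 201 CPM in WT and 117, 109 and 111 CPM in Aromhum mice (log2 fold change -0.81, adjusted p = 0.0307). In these cells, fibroblast markers summed to 639 to 912 CPM in WT and 1434 to 4256 CPM in Aromhum mice, and markers of smooth muscle and pericytes to 496 to 662 and 1005 to 1413 CPM, and their part was not tested. This was the opposite direction to fibroblast-like cells, though the difference between these cell types was not tested. In myonuclei, Timp4 was the only call of 20 members (5.00%), against 0.372% of all genes, at 31.9, 56.1 and 68.7 CPM in WT and 4.96, 10.6 and 2.63 CPM in Aromhum mice (log2 fold change -3.23 ± 0.43, adjusted p = 0.0189). The endothelial markers there summed to 345 to 494 CPM in WT and 127 to 187 CPM in Aromhum mice, and their part was not tested. In T cells, Timp1 was the only call of 6 members (16.7%), against 0.726% of all genes, at 0 UMIs in WT and 412, 340 and 78.6 CPM in Aromhum mice, at least 55.2-fold higher as a group (adjusted p = 0.0448), with fibroblast markers at 219 to 5288 CPM in WT and 4930 to 20625 CPM in Aromhum mice. Leaving out a mouse took away the T cell call except for Aromhum mouse 3, without which there were 6, and for muscle stem cells left 1 without WT mouse 1, 6 without Aromhum mouse 3 and 0 otherwise. The call of Timp4 in myonuclei was lost without WT mouse 2, WT mouse 3 or Aromhum mouse 1, with an adjusted p of up to 0.105.

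No member was called in macrophages, of 26 tested, where edgeR called 0% of all genes. Under an unadjusted p of 0.05 there were 13 members, and the share of all genes under it is not given here. DESeq2 called 5 members, among 117 of 8785 genes, and with the replicate block some were called too, as given below. Timp1 was at 83.4, 28.6 and 83.0 CPM in WT and 243, 206 and 133 CPM in Aromhum macrophages, in which fibroblast markers summed to 1522 to 2773 and 3517 to 6826 CPM, and their part was not tested. Mmp19 was at 254, 385 and 284 CPM in WT and 264, 334 and 332 CPM in Aromhum macrophages, and here the genotypes overlapped. Mmp12 varied widely within the WT mice, at 0, 668 and 369 CPM in WT and 24.2, 43.6 and 39.6 CPM in Aromhum macrophages. Mmp13 was at 0 in WT and 23.4, 14.4 and 0 CPM in Aromhum macrophages, at least 30.9-fold higher as a group and 18.1-fold without Aromhum mouse 1. In lymphatic endothelial cells, 0 of 18 members were called by edgeR, against 0% of all genes, and 1 by DESeq2, among 14 of 7670 genes. Under an unadjusted p of 0.05 there were 6 members, again without the share of all genes.

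Other genes of matrix proteolysis were looked at beside the members, from a list of 37 genes of which 34 were in the table. In fibroblast-like cells 7 of 33 tested were called higher and 3 lower, against the 7.51% and 5.54% of all genes given above. Higher were the serine protease Htra1, at 364, 283 and 270 CPM in WT and 799, 648 and 561 CPM in Aromhum mice, its relative Htra3, the procollagen C-proteinase Bmp1, at 180, 157 and 154 against 338, 333 and 214 CPM, the cathepsin Ctsb, the collagen uptake receptor Mrc2, Cd44 and the plasminogen activator inhibitor Serpinb2. Serpinb2 was at 0.341, 0.462 and 0.361 CPM in WT and 64.5, 96.1 and 0.808 CPM in Aromhum mice, so that Aromhum mouse 3 lay near the WT mice, as for Mmp3. Lower were the cathepsin inhibitor Cst3 (log2 fold change -1.29 ± 0.21, adjusted p = 0.0214), Pcolce2, which helps Bmp1, and Spock2, at 30.3, 25.7 and 34.8 against 5.97, 5.62 and 14.8 CPM. By group, 1 of 7 plasminogen system genes, 2 of 8 activators and receptors, 3 of 7 matrix-processing genes and 1 of 8 cathepsins and cystatins were called higher. In endothelial cells 16 of 31 were called, all higher in Aromhum mice, against 10.6% of all genes in that direction, and the fibroblast marker values given for endothelial cells stand beside that count too.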

How the data were processed

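Per the labels and the study's methods, libraries were aligned with Cell Ranger 3.0.2 to mm10 with human CYP19A1 added, and the authors deposited 1 table of raw UMI counts per gene and barcode. How counting treated strand is not given in the sources used here. It matters for Timp1, Timp3 and Timp4, which lie within synapsin genes on the opposite strand, and 14 of the 60 members overlap another coding gene.

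Barcodes were normalized to 10000 UMIs and clustered with scanpy 1.11.5 (2000 variable genes without members, 30 components, Leiden resolution 0.8), giving 35 clusters. Clusters that scored 0.9 or more on the markers of a second lineage were left unnamed by a rule set after the data were seen. This rule was not applied to the subclusters of fibroblast-like cells, so subcluster 18, with endothelial genes among its leading genes, stayed named. Doublets were marked with Scrublet only for an alternative, and 1 WT mouse took the median cut of the others because its own marked under 0.5%. Between mice, 471 barcode sequences were shared. Counts were summed per mouse and cell type with at least 20 cells in every mouse and tested with edgeR 4.0.16 (TMM, filterByExpr, quasi-likelihood). Alternatives used DESeq2 1.42.0, limma 3.58.1, RLE size factors, no filter on low counts, other clustering, no doublets, the study's limits, the replicate block, single subclusters (added after seeing the data) and leaving out each mouse. The tests were checked on simulated counts. The p-values measure the spread between 3 mice per genotype.

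Members and lists were chosen with earlier results of these data known. Named were the members called in any fit (the 30 with the lowest adjusted p if more), the 4 highest of each family, the highest of each family in each cell type, and Mmp3, Timp1, Adamts5, Mmp19 and Timp3, which made 37. Mmp8, Mmp9, Mmp10, Mmp12, Mmp13, Mmp16, Mmp17, Mmp27, Adam3, Adam19, Adam22, Adam32 and Adamtsl3, where named, were chosen after their values were seen.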

Additional observations from a re-analysis of the deposited data

Results flagged for a closer look

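The following members differed between cell types in their genotype effect, by the interaction in edgeR's quasi-likelihood test. Each value is the log2 fold change (Aromhum over WT) in fibroblast-like cells minus that in the other cell type. Against endothelial cells, the difference was -2.62 for Mmp23, -1.66 for Mmp2, -2.24 for Adamts2, -1.48 for Timp2, -2.49 for Adamtsl1, -1.07 for Adamts9 and -1.41 for Mmp14, the members called whichever mouse was left out. It was -2.54 for Adam33, -2.19 for Adamts19, -1.19 for Adamtsl5, -1.19 for Adamts5, -1.65 for Adam30, -1.25 for Mmp3, -1.39 for Adamts6, -2.49 for Adamts3, -0.81 for Adamtsl4, -1.35 for Adamts12 and -1.48 for Adamtsl3, and 2.54 for Mmp15, in the other direction. Fibroblast markers also differed between the genotypes in endothelial cells, at 425 to 546 CPM in WT and 1973 to 4603 CPM in Aromhum mice, and their part in these differences was not tested. Adam33 and Adamts3 did not pass the filter on counts in endothelial cells alone, so their endothelial fold change was not tested by itself. Against smooth muscle cells and pericytes, the difference was 2.49 for Adamts15, -1.08 for Adamts9, -1.54 for Adamts12, -0.77 for Timp3 and -0.61 for Adamts4.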

How the results depend on the processing

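Directions were mostly kept and calls often were not, over alternatives that share mice and cells with the main fits. Over 1436 alternative values for 116 results on single genes, 959 kept direction and call, 470 kept direction and lost the call, and 7 turned: Mmp2 in Esr1hi HAFs in subcluster 11 alone (-0.14), and within the study's limits on barcodes Adamts7 (-0.0095) and Adamts6 (-0.22) in the sum of all barcodes, Adamtsl4 in fibroblast-like cells (0.21), and Adamtsl4 (0.088), Mmp3 (0.14) and Adamts5 (0.055) in the interaction with endothelial cells. Of the values within those limits, 13 kept direction and call, 53 kept only the direction and 6 turned. Those limits leave fewer cells and genes, and the cause of these changes was not tested.

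The 18 members called in fibroblast-like cells became 10 with equal weight of the 14 of 22 subclusters with at least 10 cells in every mouse (by limma, with 39 in place of 55 members tested), 0 within the study's limits and 0 to 32 without 1 mouse. The 20 called in the sum of all barcodes became 12 with only the mitochondrial and lower limits, 0 within all limits and 0 to 27 without 1 mouse. The 27 called over the other cell types became 53 by DESeq2, 59 without a filter on low counts, 59 with the replicate block, 12 within the limits and 15 to 69 without 1 mouse. The 27 called over the subgroups became 8 with only the mitochondrial and lower limits, 41 without a filter, 2 within the limits and 10 to 50 without 1 mouse. Esr1hi HAFs, with 17 of these 27, could not be fitted under either set of limits. Added after seeing the data, fits of Esr1hi HAFs in only subcluster 11 or only subcluster 18 called 1 and 4 members. The 24 interactions became 8 by limma-voom, 2 within the limits and 9 to 45 without 1 mouse. No share of all genes called is given beside these counts. They show only how calls depend on the settings, as do the counts without 1 mouse given for each cell type. Within the limits fewer fits could be made (5 for other cell types, 3 for subgroups, 1 interaction). The 16 members highest in fibroblast-like cells became 24 within the limits, where mesothelial cells and T cells, the earlier place of 6 of the 8 gained, were too few to be ranked.

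The labels do not tie replicate numbers to dates, and the numbers were not used as pairs. Deviations of same-numbered mice correlated at 0.20, -0.13 and 0.16 in fibroblast-like cells, but at 0.14, 0.15 and 0.28 in endothelial cells, and were also all positive in smooth muscle cells and pericytes, muscle stem cells and glial cells, so a shared date is possible. With the replicate block 18 members were called in fibroblast-like cells, 23 in the sum of all barcodes, 20 in endothelial cells, 38 over the subgroups, 6 in glial cells, 8 in mesothelial cells, 9 in smooth muscle cells and pericytes, 7 in muscle stem cells, 4 in myonuclei and 4 in macrophages. The share of all genes called with the block is not given beside these counts. They show only how calls depend on the block and are no result about the members. Mmp10 and Mmp13 had their UMIs in 2 mice and were tested only without the filter on low counts or without 1 mouse.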
